A study of Mus musculus with 36 samples.

Results

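The genes described here encode the main actin, cofilin and tubulin proteins of the cytoskeleton: the cytoplasmic actins Actb and Actg1, the actin-severing protein cofilin (Cfl1), the alpha-tubulins Tuba1a, Tuba1b and Tuba1c and the beta-tubulins Tubb5 and Tubb4b. They are 8 named genes of 49993 with coordinates in the RefSeq table of mouse assembly GRCm38.p6 (mm10), 21896 of which are protein-coding. For each gene, summits of TBP binding within 500 bp of either gene end were taken from 4 deposited lists, and the nearest summit was taken where there was none. RT7 4-OHT cells were Taf7 flox/flox and RT10 4-OHT cells Taf10 flox/flox. Both carried a heterozygous CreERT2 allele at Rosa26 (R26CreERT2/+) and received 4-hydroxytamoxifen (4-OHT) from day 1 to day 3 of culture to delete the floxed alleles. RT7 EtOH and RT10 EtOH cells had the same genotypes, the Cre allele included, and received ethanol. All were mouse embryonic stem (ES) cells grown on gelatin with serum, leukaemia inhibitory factor, CHIR99021 and PD0325901. Binding was measured by CUT&RUN, in which a nuclease tethered to an antibody releases the DNA around the bound protein.

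TBP, the TATA-binding protein, is a subunit of TFIID, the factor that recognises core promoters of protein-coding genes and starts assembly of the RNA polymerase II machinery; TAF7 and TAF10 are further TFIID subunits, and TAF10 also belongs to the SAGA coactivator. Actin polymerises into filaments that cofilin severs and recycles. Alpha- and beta-tubulin pair into the heterodimers of which microtubules are built, and several genes encode nearly the same protein of each kind. Actin and tubulin genes are transcribed in nearly every cell type, and Actb and Actg1 are known targets of serum response factor, which binds the CArG box.

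Each line and treatment had 1 list, which held 1379 summits in RT7 4-OHT, 2666 in RT7 EtOH, 2188 in RT10 4-OHT and 3102 in RT10 EtOH. The score of a summit is the authors' −log10 q-value over the IgG control, and its rank is counted from the highest score of its list. Scores and ranks describe places within a list. Where those of 2 lists stand side by side below, the difference was not tested and is not a measure of change in binding. Read depth is unknown. The labels give 2 TBP libraries per list, and no list has a replicate number, so no value below has a replicate spread, no test of treatment was possible and no p-value is given. A gene without a summit is one where no peak was called, which does not show that TBP was absent. ES cell markers had a summit at 4 of 13 genes in RT7 4-OHT, 7 in RT7 EtOH, 5 in RT10 4-OHT and 9 in RT10 EtOH, with Nanog, Klf2 and Tfcp2l1 in all 4 lists and Pou5f1, Klf4, Esrrb and Dppa5a in none. Of 8 fibroblast markers, Fn1 had a summit in both EtOH lists and the others had none. Over all protein-coding genes, 2.73% had a summit in RT7 4-OHT, 5.31% in RT7 EtOH, 3.85% in RT10 4-OHT and 5.95% in RT10 EtOH. The level of the deleted subunit was not analysed here.

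Promoters are shown for the 5 genes whose highest summit lay at most 219 bp from the annotated start in at least 2 lists, and for Actg1, which had no summit nearby, so that their core promoter motifs can be set side by side. Each sequence runs from 250 bases before to 50 bases from the RefSeq transcription start on, in the direction of transcription (RefSeq, GRCm38.p6). Capitals mark TATA matches (TATAAA or the variant TATATA), the CCAAT motif and the CArG box (the named motif of serum response factor), searched on both strands. Overlapping matches share a run of capitals. The windows are Tubb4b at chr2:25224653-25224952, minus strand, Tuba1a at chr15:98953452-98953751, minus strand, Tuba1b at chr15:98934341-98934640, minus strand, Tubb5 at chr17:35838252-35838551, minus strand, Cfl1 at chr19:5490205-5490504, plus strand and Actg1 at chr11:120348446-120348745, minus strand. Of the 8 genes 7 were matched in the promoter table. The summits of Tubb4b, Tubb5 and Cfl1 and the RT10 EtOH summit of Tuba1a fall within the printed stretch, while the other Tuba1a summits and all those of Tuba1b lie outside it. Tuba1c, with summits at least 433 bp from its start, is not printed, and Actb is named only.
Tubb4b: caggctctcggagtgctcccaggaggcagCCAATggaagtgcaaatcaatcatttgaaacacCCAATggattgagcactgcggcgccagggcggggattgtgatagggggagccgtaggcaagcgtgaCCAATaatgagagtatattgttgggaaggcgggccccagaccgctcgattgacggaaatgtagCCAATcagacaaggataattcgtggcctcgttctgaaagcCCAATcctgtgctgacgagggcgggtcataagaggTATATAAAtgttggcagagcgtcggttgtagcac
Tuba1a: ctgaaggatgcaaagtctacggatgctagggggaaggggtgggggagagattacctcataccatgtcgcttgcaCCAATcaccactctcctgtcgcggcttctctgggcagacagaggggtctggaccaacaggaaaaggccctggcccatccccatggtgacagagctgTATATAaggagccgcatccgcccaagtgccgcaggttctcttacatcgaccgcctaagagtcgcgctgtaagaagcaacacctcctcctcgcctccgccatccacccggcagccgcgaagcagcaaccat
Tuba1b: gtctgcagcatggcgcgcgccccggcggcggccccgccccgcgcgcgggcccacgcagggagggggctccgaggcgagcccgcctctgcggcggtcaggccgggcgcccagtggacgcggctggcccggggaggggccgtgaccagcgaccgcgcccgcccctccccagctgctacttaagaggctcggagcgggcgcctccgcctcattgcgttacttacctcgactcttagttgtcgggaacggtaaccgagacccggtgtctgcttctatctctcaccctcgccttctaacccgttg
Tubb5: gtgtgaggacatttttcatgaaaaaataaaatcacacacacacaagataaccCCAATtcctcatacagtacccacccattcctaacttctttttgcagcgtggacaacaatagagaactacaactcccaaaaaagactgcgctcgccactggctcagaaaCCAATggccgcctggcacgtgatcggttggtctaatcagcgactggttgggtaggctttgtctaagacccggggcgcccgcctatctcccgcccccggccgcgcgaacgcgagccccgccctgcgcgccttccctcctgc
Cfl1: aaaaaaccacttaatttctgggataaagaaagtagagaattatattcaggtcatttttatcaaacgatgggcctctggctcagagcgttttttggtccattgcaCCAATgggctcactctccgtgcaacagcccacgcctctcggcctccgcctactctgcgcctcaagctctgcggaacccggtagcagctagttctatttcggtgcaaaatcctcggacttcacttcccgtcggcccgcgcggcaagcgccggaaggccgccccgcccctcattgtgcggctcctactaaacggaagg
Actg1: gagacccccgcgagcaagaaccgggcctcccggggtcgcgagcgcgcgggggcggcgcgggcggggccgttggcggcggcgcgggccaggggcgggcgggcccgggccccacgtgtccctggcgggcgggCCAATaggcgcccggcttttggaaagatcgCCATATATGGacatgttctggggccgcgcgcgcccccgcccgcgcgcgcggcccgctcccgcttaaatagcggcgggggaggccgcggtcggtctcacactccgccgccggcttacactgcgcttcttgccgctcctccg

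TBP binding differed widely among these 8 genes. Tubb4b carried one of the highest summits in each of the 4 lists, Tuba1c had a summit inside the gene near its start in each list, and Actb had weaker summits inside its gene coordinates in each list. Actb has no start in the promoter table, so its summits could not be placed from a start. Tuba1a and Tuba1b had start-site summits in every list except RT7 4-OHT, Tubb5 and Cfl1 had them in the EtOH lists alone, and Actg1 had no summit nearby in any list. Within 500 bp of a gene end, 1 of the 8 genes was bound in RT7 4-OHT, 5 in RT7 EtOH, 3 in RT10 4-OHT and 6 in RT10 EtOH. Over all protein-coding genes the bound share was 2.73% in RT7 4-OHT, 5.31% in RT7 EtOH, 3.85% in RT10 4-OHT and 5.95% in RT10 EtOH. The 8 genes were chosen with earlier results of these data known. Their higher share is therefore no evidence of enrichment, which was not tested.

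**Figure D1:**
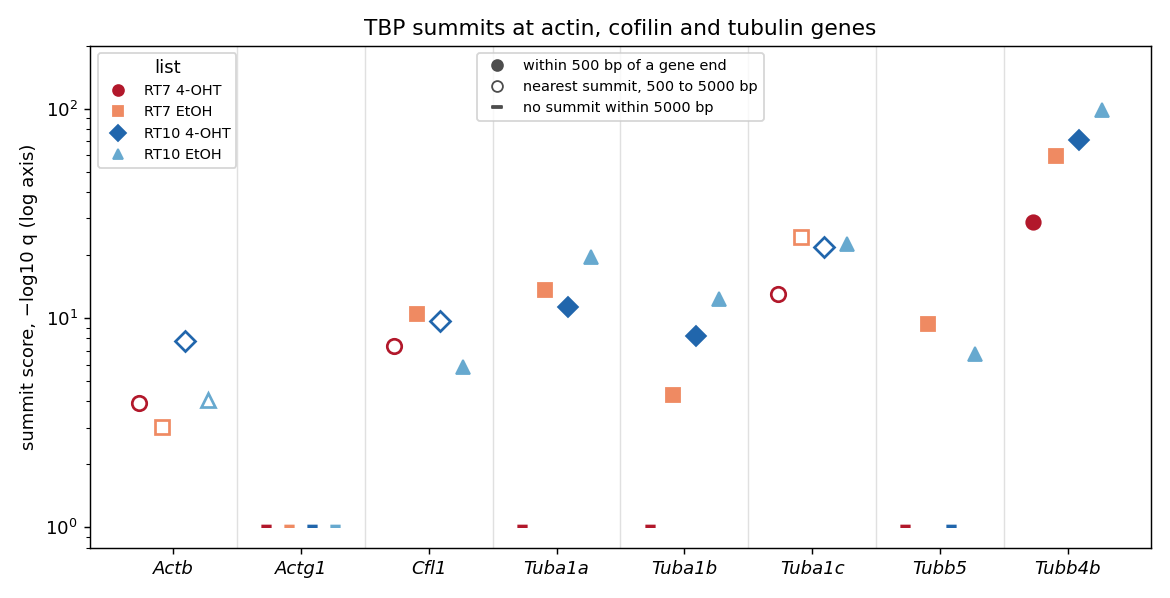
Score of the TBP summit at each gene (−log10 q, log axis) in the 4 lists. Filled markers are summits within 500 bp of a gene end, open markers the nearest summit at 500 to 5000 bp, and dashes stand for no summit within 5000 bp. Tubb4b has a filled marker in every list, Tuba1c is filled in RT10 EtOH and open in the other lists, and Actg1 has dashes in all 4.

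Among the beta-tubulins, Tubb4b (chromosome 2, 25222158 to 25224702) stood near the top of every list. Its summit scored 28.9 in RT7 4-OHT (rank 56 of 1379), against 59.8 in RT7 EtOH (rank 21 of 2666). It scored 71.3 in RT10 4-OHT (rank 13 of 2188), against 99.2 in RT10 EtOH (rank 9 of 3102). All 4 summits lay upstream of the annotated start, at 49 bp in RT7 4-OHT, 85 bp in RT7 EtOH, 68 bp in RT10 4-OHT and 79 bp in RT10 EtOH, within a span of 36 bp. No end of another gene lay within 500 bp of these summits. High-scoring genes seldom lacked a 4-OHT summit: among protein-coding genes with an EtOH score of at least 50, 6.9% (2 of 29) had none in RT7 and 2.56% (1 of 39) had none in RT10.

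The Tubb4b promoter held overlapping TATA matches of both kinds at 16 to 23 bases after the annotated start, so the matches lie downstream of that start in this annotation. It also held 5 CCAAT matches, with first bases 221, 188, 122, 59 and 19 bases before the start. The summits at 49 to 85 bp upstream lay on both sides of the match that begins 59 bases before the start. With 5 CCAAT matches spread from 221 to 19 bases before the start, any summit in that stretch lies near a match. Nearness to CCAAT was therefore close to given and shows no link to TBP binding, which was not tested. Of promoters of protein-coding genes, 16% (3399 of 21262) held a TATA match and 38.2% held CCAAT. Among promoters of protein-coding genes with a start-site summit in all 4 lists, 24.3% (124 of 511) held a TATA match and 53.2% held CCAAT.

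Tubb5 (chromosome 17, 35833920 to 35838301), the other beta-tubulin, had a start-site summit in both EtOH lists and in neither 4-OHT list. In RT7 4-OHT the nearest summit lay 12089 bp from the gene, against a summit 135 bp upstream of the start in RT7 EtOH (score 9.42, rank 781). In RT10 4-OHT the nearest lay 12250 bp away, against a summit 218 bp upstream in RT10 EtOH (score 6.77, rank 1345). Both EtOH summits thus lay in the middle range of their lists, with 83 bp between them. The neighbouring site, at an end of the DNA damage response gene Mdc1, followed the same pattern. It had no summit in either 4-OHT list, against scores of 15.9 in RT7 EtOH and 14.0 in RT10 EtOH. These 2 summits lay 3155 and 3061 bp upstream of the Tubb5 start, 39 and 133 bp from the Mdc1 end. RT7 EtOH alone also had a low summit inside Tubb5, 1653 bp from the start (score 2.23). The Tubb5 promoter held no TATA match and had CCAAT matches beginning 198 and 90 bases before the start.

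**Figure D2:**
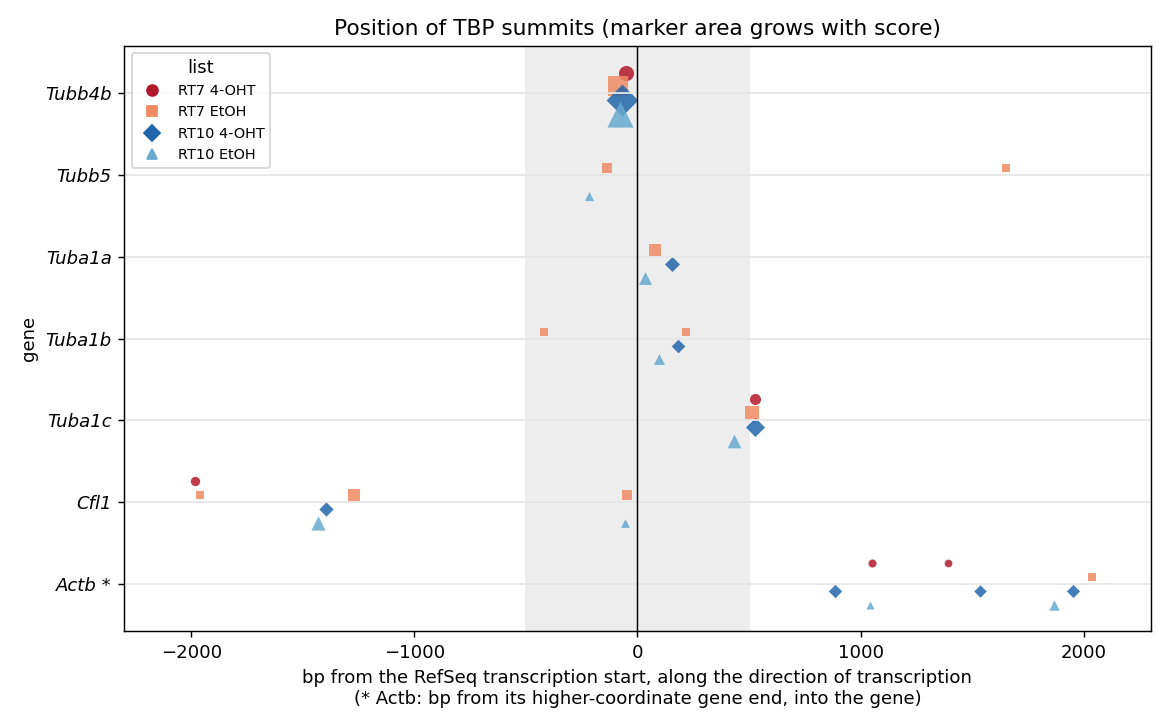
Position of every TBP summit within 2300 bp of the RefSeq start of each gene, in the direction of transcription, by list; for Actb the distance is from its higher-coordinate gene end into the gene. Actg1 has none and is not drawn. Marker area grows with score and the grey band is 500 bp to each side. Tubb4b summits stack upstream of the start, those of Tuba1a lie just downstream of it, those of Tuba1c straddle the edge of the band, and those of Actb lie 884 to 2038 bp inside the gene.

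The 3 alpha-tubulin genes lie within 107 kb of each other on chromosome 15. Tuba1a (98949847 to 98953501) had no summit in RT7 4-OHT, where the nearest lay 18727 bp away, against a summit of score 13.7 (rank 516) in RT7 EtOH. In RT10 4-OHT it had a summit of score 11.3 (rank 517 of 2188), against 19.6 (rank 386 of 3102) in RT10 EtOH. The summits lay downstream of the start, at 77 bp in RT7 EtOH, 153 bp in RT10 4-OHT and 32 bp in RT10 EtOH. Its promoter held TATATA beginning 80 bases before the start and CCAAT beginning 176 bases before it.

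Tuba1b (98931429 to 98934390) had the same pattern of presence at lower scores. It had no summit in RT7 4-OHT, the nearest lying 37838 bp away, against scores of 4.31 (rank 1732, 219 bp downstream of the start) and 3.01 (420 bp upstream) in RT7 EtOH. It scored 8.24 in RT10 4-OHT (rank 758, 180 bp downstream), against 12.3 in RT10 EtOH (rank 709, 96 bp downstream). Its promoter was GC-rich, at 72.7%, and held neither a TATA match nor CCAAT, while 2 matches to GGGCGG, the GC box bound by Sp1, lay on its opposite strand. Among promoters of protein-coding genes 46.2% held GGGCGG. In each of the 3 lists where both had a summit, Tuba1a scored higher than Tuba1b.

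Tuba1c (99029891 to 99038105) shows how much its call rests on the window of 500 bp. Its summit lay 525 bp downstream of the start in RT7 4-OHT and 513 bp in RT7 EtOH, and 526 bp in RT10 4-OHT and 433 bp in RT10 EtOH. The gene was therefore counted as bound in RT10 EtOH alone, although the 4 summits spanned 93 bp. The scores were 13.0 in RT7 4-OHT (rank 244), against 24.3 in RT7 EtOH (rank 209), and 21.9 in RT10 4-OHT (rank 212), against 22.6 in RT10 EtOH (rank 293). In every list these were higher than the scores of Tuba1a and Tuba1b where those had a summit. With a window of 1000 bp Tuba1c was bound in all 4 lists.

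The alpha-tubulin cluster also held sites between the genes that were present in all 4 lists. One lay inside the noncoding gene B430209F14Rik and at least 7018 bp from its ends. It scored 5.76 in RT7 4-OHT, against 13.7 in RT7 EtOH, and 11.8 in RT10 4-OHT, against 12.3 in RT10 EtOH. Another lay 449 to 570 bp from an end of 4930578M01Rik, with scores of 6.71 in RT7 4-OHT, against 10.4 in RT7 EtOH, and 3.68 in RT10 4-OHT, against 7.49 in RT10 EtOH. At the other end of 4930578M01Rik, RT7 4-OHT had a summit 58 bp away (score 2.30), against none in RT7 EtOH, and RT10 4-OHT had none, against a summit 79 bp away in RT10 EtOH (6.77). In RT7 4-OHT the cluster thus had summits at these sites and at Tuba1c, but none at Tuba1a or Tuba1b. Among protein-coding genes with a summit within 500 bp of a start, the middle of the distribution lay upstream in every list, at a median of 123 bp before the start in RT7 4-OHT, 126 bp in RT7 EtOH, 123 bp in RT10 4-OHT and 123 bp in RT10 EtOH. Between 70.9% and 75.8% of these genes had the summit upstream. Tubb4b, Tubb5 and Cfl1 fell on that side in each list where they had a start-site summit. Tuba1a, and Tuba1b by its highest summit, fell on the downstream side in each list where they had one. Tuba1c lay downstream in all 4 lists, but only its RT10 EtOH summit was near enough to its start to belong to that distribution.

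Cfl1 (chromosome 19, 5490455 to 5494031), cofilin, had a start-site summit in both EtOH lists, at nearly the same base. In RT7 4-OHT the nearest summit lay 1985 bp upstream (score 7.38), against a summit 48 bp upstream in RT7 EtOH (score 10.4, rank 694). In RT10 4-OHT the nearest lay 1398 bp upstream (score 9.66), against 55 bp in RT10 EtOH (score 5.84, rank 1546). The EtOH summits were 7 bp apart. Further summits lay between Cfl1 and Mus81, a gene for a DNA repair endonuclease. At the end of Mus81, RT7 4-OHT had its summit 81 bp away (score 7.38), against 105 bp in RT7 EtOH (score 5.40). Between the genes, RT7 4-OHT had no summit where RT7 EtOH had a score of 18.4 at 1271 bp upstream of Cfl1, and RT10 4-OHT scored 9.66, against 24.9 in RT10 EtOH at 1431 bp upstream. The Cfl1 promoter held no TATA match or CArG box and had CCAAT beginning 146 bases before the start.

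Actb (chromosome 5, 142903115 to 142907976), beta-actin, had no summit within 500 bp of an end in any list and summits inside the gene in all 4. RT7 4-OHT had 2, at 1053 and 1394 bp from the higher-coordinate end (scores 3.95 and 3.10), against 1 in RT7 EtOH at 2038 bp (score 3.01). RT10 4-OHT had 3, at 884, 1535 and 1951 bp (scores 7.79, 5.95 and 7.27), against 2 in RT10 EtOH at 1042 and 1868 bp (scores 4.06 and 10.8). Each 4-OHT list thus had more summits in Actb than the EtOH list of its line. This difference was not tested, and how often other genes show it was not counted. Few short genes had this arrangement: of 7938 protein-coding genes of at most 10 kb, 0.517% had a summit inside and none within 500 bp of an end in RT7 4-OHT, 0.831% in RT7 EtOH, 0.655% in RT10 4-OHT and 0.907% in RT10 EtOH, and 0.302% (24 genes) in all 4 lists. The arrangement does not exclude a start site. Tuba4a, among the 24 and named after its values were seen, had summits 62 to 137 bp from an annotated start inside its coordinates. Without a start in the promoter table, this could not be checked for Actb. Actin genes have processed pseudogenes, and the sources used here do not say how the authors treated reads that match several places. Whether such reads bear on the Actb summits was not tested.

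Actg1 (chromosome 11, 120345687 to 120348495), gamma-actin, had no summit nearby. The nearest lay 402444 bp away in RT7 4-OHT, against 324622 bp in RT7 EtOH, and 402564 bp in RT10 4-OHT, against 155485 bp in RT10 EtOH. Of protein-coding genes, 58.3% lay at least as far from a summit in RT7 4-OHT, 46.3% in RT7 EtOH, 47.9% in RT10 4-OHT and 58% in RT10 EtOH. The Actg1 promoter was the most GC-rich of the 7 at 77.3% GC, against a median of 56.3% over protein-coding promoters. It held a CArG box 90 to 81 bases before the start, a motif found in 1.52% of protein-coding promoters, as well as a CCAAT match and 6 GGGCGG matches.

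**Figure D3:**
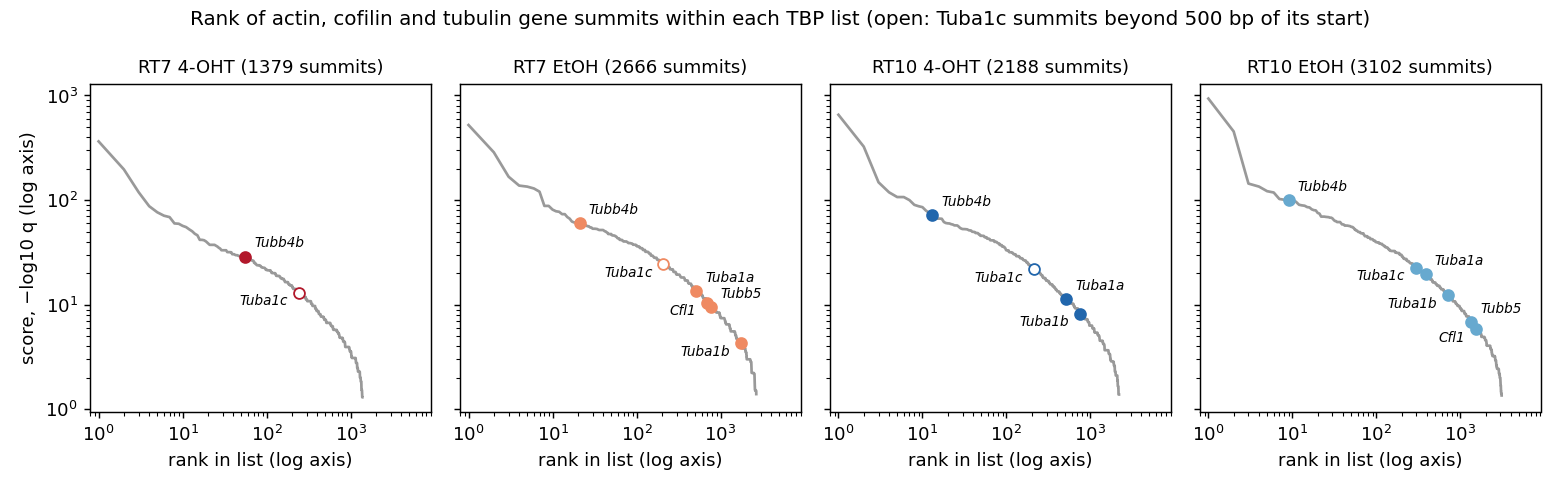
Score against rank (both log axes) for all summits of each list (grey line), with the summits of the actin, cofilin and tubulin genes marked; open circles are Tuba1c summits 513 to 526 bp from the start. Tubb4b lies at ranks 9 to 56, and the others lie at rank 209 or lower down the lists.

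To set the treatments against each other in each line, genes bound in EtOH were followed into the 4-OHT list. In RT7, 4 of the 5 genes bound in EtOH had no 4-OHT summit within 500 bp of an end (Tuba1a, Tuba1b, Tubb5 and Cfl1). Over all protein-coding genes the share was 55.2% (642 of 1162), and among those with EtOH scores of 4 to 20, a range chosen after the values were seen because it holds these 4 genes, it was 53.3%. In RT10, 3 of 6 had none (Tubb5, Cfl1 and Tuba1c), against 48.4% (630 of 1302) of all protein-coding genes and 47.8% of those with scores of 4 to 20, a range that in RT10 leaves out Tuba1c and Tubb4b. Of these 3, Tuba1c had a 4-OHT summit 93 bp from its EtOH summit, which leaves 2. The shares of all protein-coding genes were not counted in that way, so they are no background for the 2. At 500 bp, no gene of the 8 was bound in 4-OHT and unbound in EtOH of the same line. Actb had that pattern in RT10 with a window of 1000 bp and in RT7 with a window of 2000 bp. The share of all protein-coding genes with that pattern was not counted. With 5 and 6 genes, a difference from those shares was not tested.

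Across both lines, 5 of the 8 genes were bound in both EtOH lists. Tubb5 and Cfl1 had no 4-OHT summit in either line, a pattern of 23.9% of the 878 protein-coding genes bound in both EtOH lists. Tuba1a and Tuba1b had a 4-OHT summit in RT10 alone, a pattern of 20.7% of those genes. Tubb4b had one in both lines, as had 48.4%, and none of the 5 had one in RT7 alone, as had 6.95%. Whether RT7 and RT10 differ at Tuba1a and Tuba1b was not tested, and the RT7 4-OHT list is the shortest of the 4. With each list held to its 1379 highest scores, ties included, 1 gene was bound in RT7 4-OHT, against 4 in RT7 EtOH, and 3 in RT10 4-OHT, against 5 in RT10 EtOH. Tuba1a and Tuba1b still had a summit in RT10 4-OHT while Tuba1b no longer had one in RT7 EtOH, nor Cfl1 in RT10 EtOH. No share over all protein-coding genes is given for the shortened lists, so these counts have no background beside them.

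Likeness to other genes was measured as the mean absolute difference in rank percentile over the lists where a gene was bound, among protein-coding genes on other summits with the same presence in the 4 lists. Nearest to Tubb4b were the histone genes H2ac7 and H2bc7, which share a summit (difference 0.777 percentage points over 4 lists). Nearest to Tuba1a were Med29, a Mediator subunit gene, and Paf1, of the PAF elongation complex, which also share a summit (1.78 over 3 lists). Nearest to Tuba1b were Mcoln1, a lysosomal channel gene (4.75), and Lamtor1, a lysosomal scaffold gene (5.77), over 3 lists. Over the 2 EtOH lists, Klf10, a transcription factor gene, had the same ranks as Tubb5 (difference 0), followed by Ccng2, cyclin G2 (1.53), and Cdc5l, a spliceosome factor gene (3.99), and Calm2, calmodulin (4.13), were nearest to Cfl1. For Tuba1c, with 1 list, they were Ccdc9 and Setd5 (10.1 each).

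The wider actin and tubulin system was described by 7 lists with 108 genes in all. Of these 7 genes were bound in RT7 4-OHT (6.48%), 16 in RT7 EtOH (14.8%), 12 in RT10 4-OHT (11.1%) and 20 in RT10 EtOH (18.5%), and 6 in all 4 lists. The shares of all protein-coding genes were 2.73%, 5.31%, 3.85% and 5.95% in the same order, and 425 of 21896 were bound in all 4 lists. These lists too were chosen with earlier results known, and a difference from those shares was not tested. In RT7, 10 of the 16 genes bound in EtOH had no 4-OHT summit, and in RT10, 9 of 20, beside the background shares of 55.2% and 48.4%. Only Tubb2a in RT7 and Mapre1 in RT10 were bound in 4-OHT and not in EtOH of the line, a pattern not counted over all protein-coding genes. Mapre1, a microtubule end-binding protein gene, was named after its value was seen (score 13.1).

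Of the other actin isoforms, the muscle genes Acta1, Acta2, Actc1 and Actg2, none was bound in any list. Of 15 other tubulin isotypes, Tubb2a and Tubb2b were bound. Tubb2b scored 3.72 in RT7 4-OHT, against 7.93 in RT7 EtOH, and 11.9 in RT10 4-OHT, against 18.7 in RT10 EtOH. Tubb2a scored 5.32 in RT7 4-OHT and had no summit in RT7 EtOH, and it scored 2.95 in RT10 4-OHT, against 4.93 in RT10 EtOH. Both encode beta-tubulins abundant in neurons and lie on chromosome 13.

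Among 15 genes that handle actin monomers, Dstn, a relative of cofilin, was bound in all 4 lists (4.84 in RT7 4-OHT, against 7.57 in RT7 EtOH, and 3.68 in RT10 4-OHT, against 17.9 in RT10 EtOH). Cfl1 had no start-site summit called in either 4-OHT list, and whether Cfl1 and Dstn differ was not tested. The Dstn score in RT10 4-OHT is below 4.53, the lowest score kept there with lists of equal length. Tmsb10, a thymosin that binds actin monomers, had no summit in RT7 4-OHT, against a score of 15.9 in RT7 EtOH, and scored 20.3 in RT10 4-OHT, against 30.2 in RT10 EtOH. Cap1, a cyclase-associated protein gene, was bound in RT10 EtOH alone (3.23). Of 14 nucleation and capping genes, Arpc4, an Arp2/3 subunit gene, was bound in all 4 lists (14.8 in RT7 4-OHT, against 28.9 in RT7 EtOH, and 16.8 in RT10 4-OHT, against 12.1 in RT10 EtOH). Actr2, another subunit gene, was bound in the EtOH lists alone (4.68 in RT7 and 3.83 in RT10).

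Of 24 crosslinking, contraction and adhesion genes, Myl6, a myosin light chain gene, was bound in all 4 lists (9.75 in RT7 4-OHT, against 20.6 in RT7 EtOH, and 15.7 in RT10 4-OHT, against 15.1 in RT10 EtOH). Vcl, vinculin, and Myl12a, a regulatory light chain gene, had no summit in RT7 4-OHT, against scores of 15.7 and 7.45 in RT7 EtOH. In RT10 4-OHT they scored 4.53 and 7.27, against 17.5 and 2.78 in RT10 EtOH. Myh10 was bound in RT7 EtOH alone (1.51), and Actn1 (5.45) and Tagln2 (4.58) in RT10 EtOH alone. Of 20 folding genes, Arl2, a GTPase of the tubulin cofactors, and Cct7, a subunit of the chaperonin that folds actin and tubulin, were bound in all 4 lists. Arl2 scored 7.70 in RT7 4-OHT, against 12.6 in RT7 EtOH, and 15.0 in RT10 4-OHT, against 16.3 in RT10 EtOH. Cct7 scored 5.32 in RT7 4-OHT, against 11.4 in RT7 EtOH, and 12.3 in RT10 4-OHT, against 10.6 in RT10 EtOH. Cct3 had no summit in RT7 4-OHT, against 5.57 in RT7 EtOH, and scored 4.16 in RT10 4-OHT, against 2.00 in RT10 EtOH. Cct5 was bound in the EtOH lists alone (2.23 in RT7 and 3.75 in RT10), Cct6a in RT7 EtOH alone (1.55), and the prefoldin genes Pfdn6 (2.95) and Vbp1 (2.20) in RT10 EtOH alone. Of 16 microtubule regulators, Dynll1, a dynein light chain gene, was bound in the EtOH lists alone (8.42 in RT7 and 2.20 in RT10). Clasp1 was bound in RT7 EtOH alone (2.23) and Stmn1, stathmin, in RT10 EtOH alone (2.20), and no gene of the list was bound in RT7 4-OHT.

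**Figure D4:**
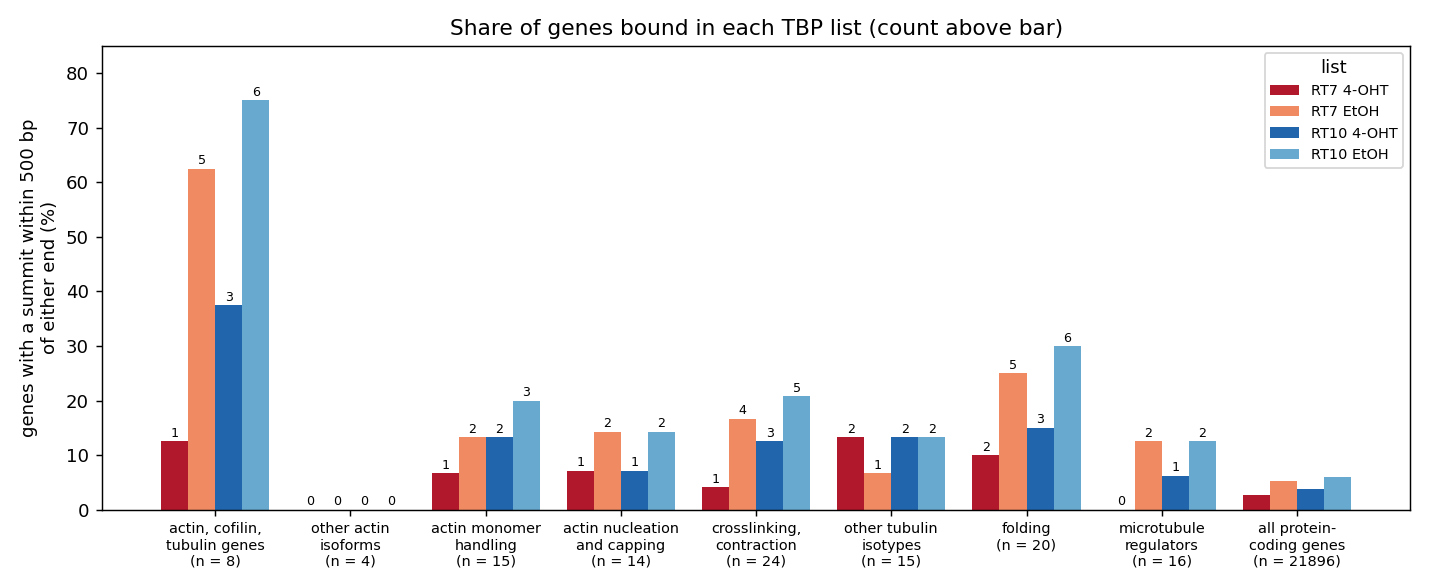
Share of genes bound by TBP at an end, within 500 bp (%), by gene list and TBP list, with the number of genes above each bar and all protein-coding genes at the right. The 8 actin, cofilin and tubulin genes were named for description with results of these lists known, and their bars run from 1 gene in RT7 4-OHT to 6 in RT10 EtOH; the folding genes run from 2 to 6 of 20 in those lists.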

How the data were processed

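TBP was mapped by CUT&RUN with protein A-MNase, per the labels' protocols, in mouse ES cells of lines RT7 and RT10. The submitters' processing notes name cutadapt 4.0, Bowtie2 2.4.4, SAMtools 1.15.1, bedtools, deepTools and MACS2 2.2.7.1 with build mm10, without roles or parameters. The deposited scores are the authors' −log10 q-values at summits of TBP over the matching IgG library, as peak names and values show. No source says whether the 2 TBP libraries of a group were pooled. Titles were followed for 2 IgG libraries (RT7 EtOH, RT10 4-OHT) whose treatment field names the other agent. 

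Summits were matched to gene ends of the RefSeq table of GRCm38.p6, the assembly of mm10; where several lay within 500 bp the highest score was taken. A gene so matched was called bound. Transcription starts and sequences came from the RefSeq promoter table (32851 promoters, 17491 protein-coding genes). Because the read depth of the libraries is unknown, no precision is attached to single scores. The 8 genes, the other gene lists and the rules were chosen with earlier results of these data known. Named genes were the 8, genes on the same summit (none), the 2 nearest by pattern for each, bound members of the other isoform lists, and per other list up to 4 of the highest EtOH scores with and without a 4-OHT summit in the line; the naming of other bound genes came after seeing their values. Alternatives were windows of 250, 1000 and 2000 bp, equal list lengths, a score minimum of 10, transcription starts only, and a 4-OHT summit within 250 bp of the EtOH summit. The matching was tested on simulated data of 2000 genes, with 0 wrong calls. Python 3.11.15, NumPy 2.4.6, pandas 2.3.3 and matplotlib 3.10.9 were used.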

Additional observations from a re-analysis of the deposited data

How the results depend on the processing

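Of 66 counts recomputed under an alternative, 52 stayed within 1.5 times the reported count and 14 did not. By that rule a fall from 3 to 2 counts as staying. Equal list lengths could not move the RT7 4-OHT counts, because that list is the shortest. A 1000 bp window gave 2 bound genes in RT7 4-OHT and 5 in RT10 4-OHT, by Tuba1c in both and Actb in RT10. A 2000 bp window gave 4 in RT7 4-OHT and 6 in RT10 4-OHT, and left 1 gene bound in EtOH and not in 4-OHT in RT10. Counting any summit inside a gene or within 1000 bp, an alternative chosen after seeing the data, gave 3 in RT7 4-OHT and 5 in RT10 4-OHT. Scores of at least 10 gave 3 bound genes in RT7 EtOH and 2 without a 4-OHT summit in RT7; among the 108 other genes they gave 1 in RT7 4-OHT, 6 in RT7 EtOH, 7 in RT10 4-OHT and 8 in RT10 EtOH, and equal list lengths gave 8 in RT10 EtOH. The 250 bp window and transcription starts alone moved no count beyond 1.5 times; Actb has no start in the table and was not counted there. Tubb4b was bound in all 4 lists under each alternative, and Actg1 in none. No paired analysis was possible because each line and treatment has 1 list without a replicate number, and for the same reason no replicate could be left out. Unknown read depth limits what a missing summit shows. The shares over all protein-coding genes are given for the main rule alone, so the counts under the alternatives have no background beside them.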

Other observations

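Actb was among 24 protein-coding genes of at most 10 kb that had a summit inside and none within 500 bp of an end in all 4 lists. Another was Tuba4a (chromosome 1, 75214972 to 75221261), an alpha-tubulin gene named here after its values were seen. Its annotated start in the promoter table lies inside these coordinates, and its summits lay close downstream of that start, at 137 bp in RT7 4-OHT (score 5.76), against 110 bp in RT7 EtOH (14.6), and at 62 bp in RT10 4-OHT (9.19), against 130 bp in RT10 EtOH (6.77). Tuba4a was therefore not counted as bound at a gene end, although each list had a summit at this start. RT10 4-OHT had a further summit 325 bp upstream of it (3.68). Whether the Actb summits likewise lie at a start could not be checked, as Actb has no start in the promoter table. Others of the 24, likewise named after the fact, were Rps2 and Rpl19, of the ribosome, Fth1, ferritin heavy chain, H3f3b, a replacement histone gene, and Cdkn1a, a cell cycle inhibitor gene.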
